A study of Mus musculus with 28 samples.

Results

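The 76 genes that encode proteins of the cytosolic ribosome were followed through wound healing in mouse skin. They were the rows, 76 of 29068 in the table of gene counts, whose symbols begin with Rpl or Rps and continue with a number and at most the letter a or x, together with Rplp0, Rplp1, Rplp2 and Rpsa. Genes of the S6 kinases, whose symbols begin with Rps6k, were left out. The rule itself uses symbols and no measured value. The list held 46 genes of the large subunit and 30 of the small subunit, and all 76 had enough counts to be tested. Rps3a1, Fau and Rack1 also encode ribosomal proteins, carry other kinds of symbol and are described beside the list.

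RNA was sequenced from skin of C57BL/6J mice (MLKL+/+ in the study's terms) whose wounds healed without treatment. The study used young adult mice of both sexes and a punch wound through the skin of the back down to the fascia. Samples were taken at 7 time points, labelled Day0, Day3, Day5, Day7, Day10, Day12 and Day14, with 4 libraries each and 28 in all. Day0 is the control in the labels, with tissue described as taken 0 days after injury. The study's paper lists day 1 as its first day of sampling and uses that name for the day of wounding. Whether Day0 tissue was taken before or after the punch is not stated. The sampled tissue took in the scab and the edges of the wound, so that each library is a mixture of cell types. No source ties the libraries of a day to separate animals in so many words, so that p-values measure the spread between these samples. The design text speaks of 5 repeats a day, of which 4 are analysed here.

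Cytosolic ribosomes translate nuclear messages into protein. The small subunit reads the message, the large subunit joins the amino acids, and each ribosomal protein is present mostly once per ribosome beside the ribosomal RNAs. The messages of these proteins are among the most abundant of any cell. Most of them start with a short run of C and T letters, the 5′ terminal oligopyrimidine (TOP) tract, through which the mTOR pathway and the protein Larp1 control their translation and stability.

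The sequence around the transcription start was read from RefSeq promoters of GRCm38.p6, the build named mm10 in the submitters' processing notes, for the 56 members that matched an entry (66 starts, since some genes had several). Each 30-base window holds the 15 bases before the annotated start and the first 15 transcribed bases of the 5′ exon. The longest run of C and T is in capitals, and the windows are shown because the C/T run is the feature these genes are known to share. The first 5 genes hold long runs. The last 7 are among the members with the largest or the smallest changes, and their longest runs are from 3 to 10 letters. They do not stand for all such members, since Rpl35a (up to 13 letters), Rps27 (9) and Rpl13 (9), not shown, were also among the lowest on some days. Rpl21 had no entry.
Rpl7a (chr2:26910792-26910821, + strand): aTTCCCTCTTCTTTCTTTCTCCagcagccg
Rpl27a (chr7:109519180-109519209, + strand): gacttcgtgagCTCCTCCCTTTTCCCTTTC
Rpl35 (chr2:39005117-39005146, - strand): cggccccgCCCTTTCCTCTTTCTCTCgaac
Rps6 (chr4:86857353-86857382, - strand): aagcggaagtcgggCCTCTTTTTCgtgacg
Rps18 (chr17:33955651-33955680, - strand): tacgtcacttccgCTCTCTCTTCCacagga
Rpl41 (chr10:128549154-128549183, - strand): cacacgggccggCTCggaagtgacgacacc
Rps2 (chr17:24720048-24720077, + strand): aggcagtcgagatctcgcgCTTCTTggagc
Rpl10 (chrX:74270801-74270830, + strand): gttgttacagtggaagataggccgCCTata
Rpl27 (chr11:101442230-101442259, + strand): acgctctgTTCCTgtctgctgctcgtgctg
Rps15 (chr10:80292416-80292445, + strand): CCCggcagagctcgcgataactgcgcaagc
Rps4x (chrX:102189377-102189406, - strand): ctgaggctgggcggagcaacccaggCTCCa
Rplp2 (chr7:141447636-141447665, + strand): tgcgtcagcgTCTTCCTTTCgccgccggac

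A run of 8 or more C or T letters on the given strand was found in 26 of the 66 member windows (39.4%, 25 genes) and in 12.0% of the 32851 windows of all RefSeq starts. With runs of 7 or more the shares were 48.5% and 18.6%. RefSeq starts can lie some bases away from the start used in skin, so a window without a run says only that these letters are not in it. Short sequences were also searched on both strands of the 300 bases from 250 before to 50 after the start. CCGGAAG, a form of the site of ETS factors, occurred in 24 of the 66 member promoters (36.4%, 23 genes, against 8.9% of all). CACGTG, the E-box of Myc and related factors, occurred in 8 (12.1%, 6 genes, against 7.2%). TATAAA was found in 6 (9.1%, against 13.6% of all). A palindrome with CGCG at its centre occurred in 7 (10.6%, 6 genes, against 0.5% of all), and a motif of the YY1 type in 4 (6.1%, against 1.7%). These 4 starts belong to only 2 genes, Rpl13a and Rpl35a. Promoters of neighbouring starts of a gene overlap, so that the same site can be counted more than once. These matches describe the sequence and not binding.

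A pair of promoters with CCGGAAG are shown, in the 90 bases before the start and with each match or its reverse complement in capitals. Rps18 stands for the members with a long C/T run, and Rpl41 for the few members whose level hardly moved.
Rps18 (chr17:33955666-33955755, - strand): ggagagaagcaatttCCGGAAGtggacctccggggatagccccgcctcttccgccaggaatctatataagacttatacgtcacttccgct
Rpl41 (chr10:128549169-128549258, - strand): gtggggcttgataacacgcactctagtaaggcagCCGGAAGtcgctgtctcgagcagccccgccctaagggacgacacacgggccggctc

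Each library held between 36706513 and 40655764 counts (median 39499595), and every member had at least 5783 counts in every library. Of all genes, 18107 passed the filter on low counts. The Day0 libraries were the most variable over all genes, with a biological coefficient of variation of 26.4% against 5.81% to 10.8% within the other days. The members did not share this spread. Their standard deviation between Day0 libraries was 0.080 on the log2 scale, against 0.057 to 0.134 on the other days, with the widest on Day5.

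Together the 76 genes took 5.74% ± 0.26 (SD, n = 4) of all gene counts on Day0. The 4 Day0 libraries held 6.05%, 5.50%, 5.54% and 5.85%. On Day3 the share was 4.38% ± 0.23 (SD, n = 4), with libraries at 4.68%, 4.18%, 4.42% and 4.22%. It was 4.48% ± 0.38 (SD, n = 4) on Day5, 4.77% ± 0.24 (SD, n = 4) on Day7 and 4.98% ± 0.19 (SD, n = 4) on Day10. All 16 libraries of Day3 to Day10 lay below the lowest Day0 library. On Day12 the share was 5.58% ± 0.15 (SD, n = 4), with libraries at 5.75%, 5.64%, 5.53% and 5.40%, of which 3 lay within the range of Day0 and 1 below it. As a share of summed FPKM, Day12 was slightly above Day0 (15.6% ± 0.34 against 15.5% ± 0.42, SD, n = 4 each). On Day14 it was 6.75% ± 0.26 (SD, n = 4), with libraries at 6.87%, 6.60%, 7.06% and 6.48%, all above the highest of Day0. In bulk tissue, fewer cells of a type and less RNA per cell cannot be told apart, and a share also depends on what else is in the library.

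**Figure D1:**
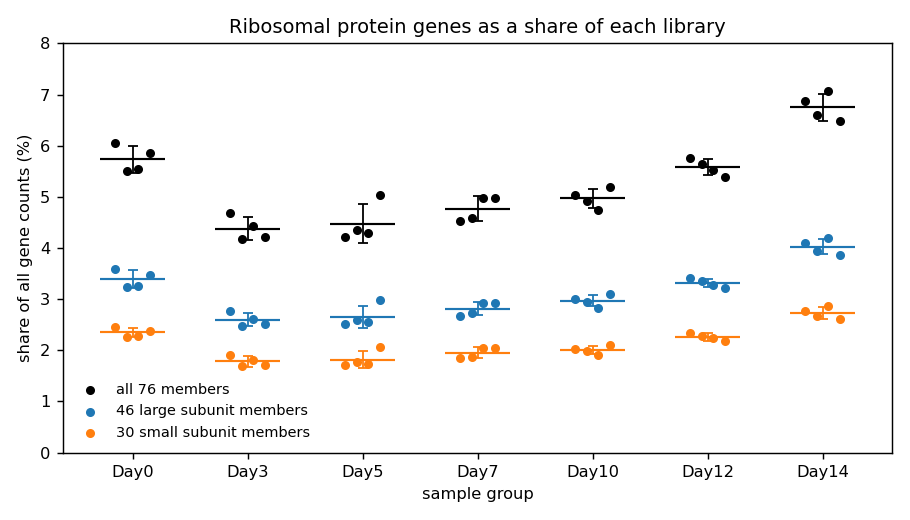
Counts of ribosomal protein genes as a percentage of all gene counts (vertical axis) by sample group (horizontal axis), one point per library, with the mean (horizontal line) and SD (bar) of 4 libraries. All 76 members, the 46 large subunit members and the 30 small subunit members were lowest on Day3, at a mean of 4.38%, 2.59% and 1.78%, and highest on Day14, at 6.75%, 4.02% and 2.73%.

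The counts of the large subunit genes were 1.44 times those of the small subunit genes on Day0 (SD 0.019, n = 4), and the mean of this ratio was between 1.44 and 1.48 on all 7 days. The median log2 fold change against Day0 of the large and small subunit genes was -0.35 and -0.34 on Day3 and 0.14 and 0.094 on Day14.

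Most of the family was lower from Day3 to Day10 than on Day0. On Day3, 69 of the 76 members were lower and 0 higher at an adjusted p under 0.05, while of all genes tested 34.8% were lower and 31.8% higher. The median log2 fold change was -0.35, with members between -0.67 and 0.11 and a median of -0.032 over all genes. The 4 Day3 libraries lay wholly below the 4 Day0 libraries for 66 members, which was the case for 28.6% of all genes. On Day5, 68 members were lower (30.6% of all genes, with 29% higher) with a median of -0.33, and on Day7 67 were lower (24.8% of all genes, with 25.6% higher) with a median of -0.28. On Day10, 63 were lower (26.9% of all genes, with 23.5% higher), with a median of -0.27. No member was higher on Day3, Day5, Day7, Day10 or Day12, at an adjusted or an unadjusted p under 0.05 in edgeR, and DESeq2 also called 0. The changes were small, and under the criteria of the study's methods, a log2 fold change over 1.5 with an unadjusted p under 0.05, 0 members passed on Day3, against 12.4% of all genes called lower and 6.5% higher on Day3.

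The tests were edgeR's quasi-likelihood test with TMM normalisation and Benjamini-Hochberg adjustment over the 18107 genes. On Day12, 45 members were lower (25.6% of all genes) and 0 higher (21.7%), with a median of -0.21. This count depended on the scaling between libraries. Without composition normalisation the median of all genes on Day12 moved from -0.037 to 0.11, a shift of 0.14, and 8 members were lower and 1 higher, with 16.3% of all genes lower and 33.6% higher under the same scaling. Relative to the median of all genes, the members' median on Day12 was -0.17 with either scaling. A change of scaling shifts all genes nearly alike, so this difference cannot test the scaling.

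**Figure D2:**
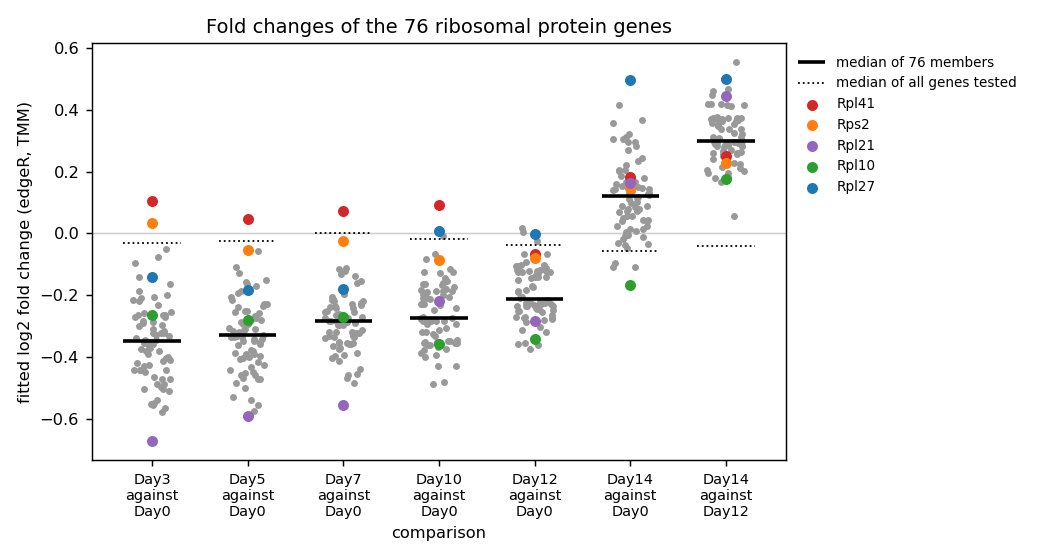
Fitted log2 fold change (vertical axis) of each of the 76 genes (points) in 7 comparisons (horizontal axis), with the median of the members (solid line) and of all genes tested (dotted line). The members' median was -0.35 on Day3 and 0.12 on Day14, Rpl21 was the lowest member on Day3, Rpl41 was between -0.068 and 0.11 up to Day12, and 5 named genes are coloured.

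Rpl21, a large subunit protein, had the largest decrease. Its CPM, its counts scaled to library size by TMM, were 273, 247, 245 and 279 on Day0 and 168, 157, 161 and 168 on Day3. Every Day3 library lay below every Day0 library. The log2 fold change was -0.67 (SE 0.066, adjusted p = 8.22e-10, edgeR, Benjamini-Hochberg). Rpl21 was also the lowest member on Day5 (-0.59) and Day7 (-0.56), and its day means spanned 0.83 on the log2 scale, the widest range of the family. Next on Day3 came 2 small subunit genes, Rps15 (-0.58, SE 0.074) and Rps4x (-0.56, SE 0.065), the X-linked form of this protein. Rpl22, which also binds RNA outside the ribosome, was among the 3 lowest on Day5 (-0.55) and Rpl13 on Day7 (-0.48). On Day10 the lowest were Rps27 (-0.49), Rps4x (-0.48) and Rpl35a (-0.43), and on Day12 Rpl36 (-0.37), Rps15 (-0.36) and Rpl35a (-0.36).

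Rpl5 and Rpl11 bind the 5S ribosomal RNA and, outside the ribosome, hold back Mdm2, the ubiquitin ligase of p53. Rpl5 was at 1097, 986, 1003 and 1003 CPM on Day0, 745, 691, 723 and 726 on Day3 and 1211, 1159.7, 1182 and 1099.6 on Day14. The Day3 libraries were all below Day0, and the Day14 libraries all above it. Its log2 fold change was -0.50 on Day3 (SE 0.054, adjusted p = 4.1e-09, edgeR, Benjamini-Hochberg) and 0.19 on Day14 (SE 0.054, adjusted p = 0.00374, edgeR, Benjamini-Hochberg). Rpl11 fell on Day3 (-0.33, SE 0.061) and rose on Day14 (0.22, SE 0.061).

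The P-stalk, which recruits elongation factors to the large subunit, is made of Rplp0, Rplp1 and Rplp2. Rplp0 fell on Day3 (-0.27, SE 0.068) and Rplp1 did so too (-0.23, SE 0.066). Rplp2 was at 497, 398, 394 and 472 CPM on Day0, 436, 409.6, 431 and 424 on Day3, 316, 327, 390.0 and 376 on Day7 and 605, 536, 619 and 511 on Day14. Its Day3 libraries lay inside the range of Day0, its Day7 libraries below and its Day14 libraries above. The log2 fold change of Rplp2 was -0.051 on Day3 (SE 0.082, adjusted p = 0.602), -0.32 on Day7 (adjusted p = 0.00187) and 0.37 on Day14 (adjusted p = 0.000342, all edgeR, Benjamini-Hochberg). On Day14, Rplp0 was at -0.048 and Rplp1 at -0.017 against Day0 (adjusted p = 0.557 and 0.833, edgeR, Benjamini-Hochberg), and without composition normalisation these 2 values were 0.077 and 0.11.

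Rpl3 lies near the peptidyl transferase centre, and Rpl10 joins late in assembly and completes it. Rpl3 fell on Day3 (-0.29, SE 0.065) and was at 0.055 on Day14 (SE 0.065). Rpl10 fell on Day3 (-0.26, SE 0.065), Day10 (-0.36) and Day12 (-0.34). It is an X-linked gene and had the lowest value of the family on Day14. Its CPM were 936, 953, 987 and 893 on Day0 and 811, 798, 951 and 799.9 on Day14, with 3 of the 4 Day14 libraries below all of Day0 and replicate 3 inside it. The log2 fold change was -0.17 (SE 0.065, adjusted p = 0.0273, edgeR, Benjamini-Hochberg). This call was lost when any of 7 of the 8 libraries was left out, all except Day14 replicate 3, and without composition normalisation the value was -0.041.

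Around the mouth of the exit tunnel, through which the new protein leaves, sit Rpl19, Rpl26, Rpl35 and Rpl39. All 4 fell on Day3, by values from -0.47 for Rpl35 to -0.30 for Rpl19. On Day14 Rpl26 rose (0.17, SE 0.063), and the other 3 were between 0.0042 and 0.072. Of these 4, Rpl35 had moved between Day5 and Day7 already (0.24, SE 0.085), the only member called in that step. This call held in 3 of the 8 fits that left out 1 library, and no member was called without the low-count filter.

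Rps6, the substrate of the S6 kinases, was at 1151, 1052, 1065 and 1041 CPM on Day0 and 878, 810.2, 837 and 801 on Day3, with no overlap between the groups. Its log2 fold change was -0.37 on Day3 (SE 0.074, adjusted p = 7.24e-05, edgeR, Benjamini-Hochberg) and -0.004 on Day14 (SE 0.074), where it was 0.12 without composition normalisation. Rps14 and Rps19, both known from inherited or acquired anaemias, fell on Day3 by 0.56 (SE 0.068) and 0.44 (SE 0.073) on the log2 scale. Rps3, at the entry of the message channel, fell on Day3 (-0.32) and rose on Day14 (0.18, SE 0.062). Rpsa, also known as a laminin receptor, was not called on any day against Day0, with values from -0.16 on Day5 to 0.10 on Day14.

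Rps27a is made as a fusion with ubiquitin. It was at 566, 433, 522 and 554 CPM on Day0, 469, 412, 470.2 and 385 on Day3 and 708, 688, 707 and 670.0 on Day14. The Day14 libraries were above all of Day0, and Day3 overlapped Day0. Its log2 fold change was -0.26 on Day3 (SE 0.10, adjusted p = 0.025) and 0.42 on Day14 (SE 0.10, adjusted p = 0.000674, both edgeR, Benjamini-Hochberg).

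Rplp0, Rpl13a, Rps18 and Rpl32 are often used as reference genes in quantitative PCR. All 4 fell on Day3, by 0.27, 0.45, 0.26 and 0.35 on the log2 scale (SE 0.068, 0.072, 0.063 and 0.068). From Day12 to Day14 Rps18 rose by 0.37 and Rpl13a by 0.37, while Rplp0 was at 0.057 (SE 0.068, adjusted p = 0.515, edgeR, Benjamini-Hochberg). Rpl38 and Rpl10a, members with reported roles in the translation of selected messages, rose on Day14 by 0.32 (SE 0.063) and 0.19 (SE 0.075), after falling on Day3 by 0.32 and 0.31.

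Against Day0 on Day14, 26 members were higher and 1 lower, while 28.2% of all genes were higher and 34.5% lower, and the members' median log2 fold change was 0.12 against -0.056 over all genes. The 4 Day14 libraries lay wholly above Day0 for 19 members (23.4% of all genes). The share of members called higher, 34.2%, was near that of all genes. It depended on the libraries and the scaling, with 17 members higher without Day14 replicate 3, 51 without Day0 replicate 1 and 47 without Day0 replicate 4. Without composition normalisation, which moved the median of all genes on Day14 by 0.13, 59 were higher and 0 lower, with 36.1% of all genes higher and 28.1% lower under the same scaling. Relative to that median the members' median was 0.18 with either scaling, which again cannot test the scaling.

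The step from Day12 to Day14 was more uniform. Its contrast left out the Day0 libraries, although they share the estimate of spread in the one fit over all 7 days. Of the 76 members, 74 were higher on Day14 than on Day12 and 0 lower, while of all genes 19.9% were higher and 25.3% lower. All 76 fitted values were above 0, with a median of 0.30 and a range from 0.057 (Rplp0) to 0.55 (Rplp2). The 4 Day14 libraries lay wholly above the 4 Day12 libraries for 68 members (20.7% of all genes). Rplp0 and Rps6 were the 2 members not called. Between the earlier days fewer members were called, and the counts depended on the scaling. None was called between Day3 and Day5 in edgeR or in DESeq2, where 12.9% of all genes were higher and 11.4% lower, and 0 members were higher and 0 lower at an unadjusted p under 0.05. Between Day5 and Day7, 1 was higher (13.9% of all genes) and 0 lower (14.6%), and without composition normalisation 9 were higher (17.1% of all genes). From Day7 to Day10, 5 were higher (14.3% of all genes) and 0 lower (18%), of which Rpl21 had the largest value (0.34, SE 0.066). From Day10 to Day12, 12 were higher (18.7% of all genes) and 0 lower (20.7%), led by Rps3 (0.29, SE 0.062), Rpl7 (0.25) and Rpl4 (0.24). Without composition normalisation, 13 were higher from Day7 to Day10 (18.8% of all genes) and 34 from Day10 to Day12 (26.6% of all genes). With limma on FPKM, which has no composition normalisation either, the counts were also 13 and 34. With the 8 libraries alone they were 12 and 29.

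Rpl27, of the large subunit, had the largest increase on Day14. Its CPM were 335, 275, 289 and 313 on Day0, 287, 322, 297 and 304 on Day12 and 439, 425, 455 and 391 on Day14. All Day14 libraries were above all of Day0 and of Day12, which overlapped each other. The log2 fold change against Day0 was 0.50 (SE 0.082, adjusted p = 6.6e-06, edgeR, Benjamini-Hochberg). On Day3 it was -0.14 (adjusted p = 0.131, edgeR, Benjamini-Hochberg). The 3 members with the largest values on Day14 were Rpl27, Rps27a and Rplp2, and those with the smallest were Rpl10, Rps4x (-0.11) and Rps25 (-0.11). Rps4x was at 0.016 without composition normalisation.

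Over the whole course 74 of the 76 members differed among the 7 days, as did 89.5% of all genes. The 2 that were not called were Rpl41 and Rps2. Rpl41 encodes the shortest protein of the ribosome. It was at 1629, 1420.5, 1417 and 1552 CPM on Day0, 1715, 1519, 1658 and 1584 on Day3 and 1708, 1656, 1872 and 1599 on Day14. The Day3 and Day14 libraries overlapped those of Day0. Its log2 fold change was 0.11 on Day3 (SE 0.072, adjusted p = 0.198), and 0.18 on Day14 (adjusted p = 0.0284, both edgeR, Benjamini-Hochberg). Rps2, near the message channel of the small subunit, was at 1129, 976, 1047 and 1160.5 CPM on Day0 and 1134, 1039, 1182 and 1056 on Day3, with overlapping libraries. Its log2 fold change on Day3 was 0.033 (SE 0.079, adjusted p = 0.732, edgeR, Benjamini-Hochberg) and was -0.024 without composition normalisation. The other members not called on Day3 were Rpl27, Rpsa, Rpl7a, Rps29 and Rplp2. Rps2 (0.23), Rpl41 (0.25) and Rpsa (0.27) had the smallest ranges of day means on the log2 scale, and Rpl21 (0.83), Rps27a (0.72) and Rpl27 (0.69) the largest.

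**Figure D3:**
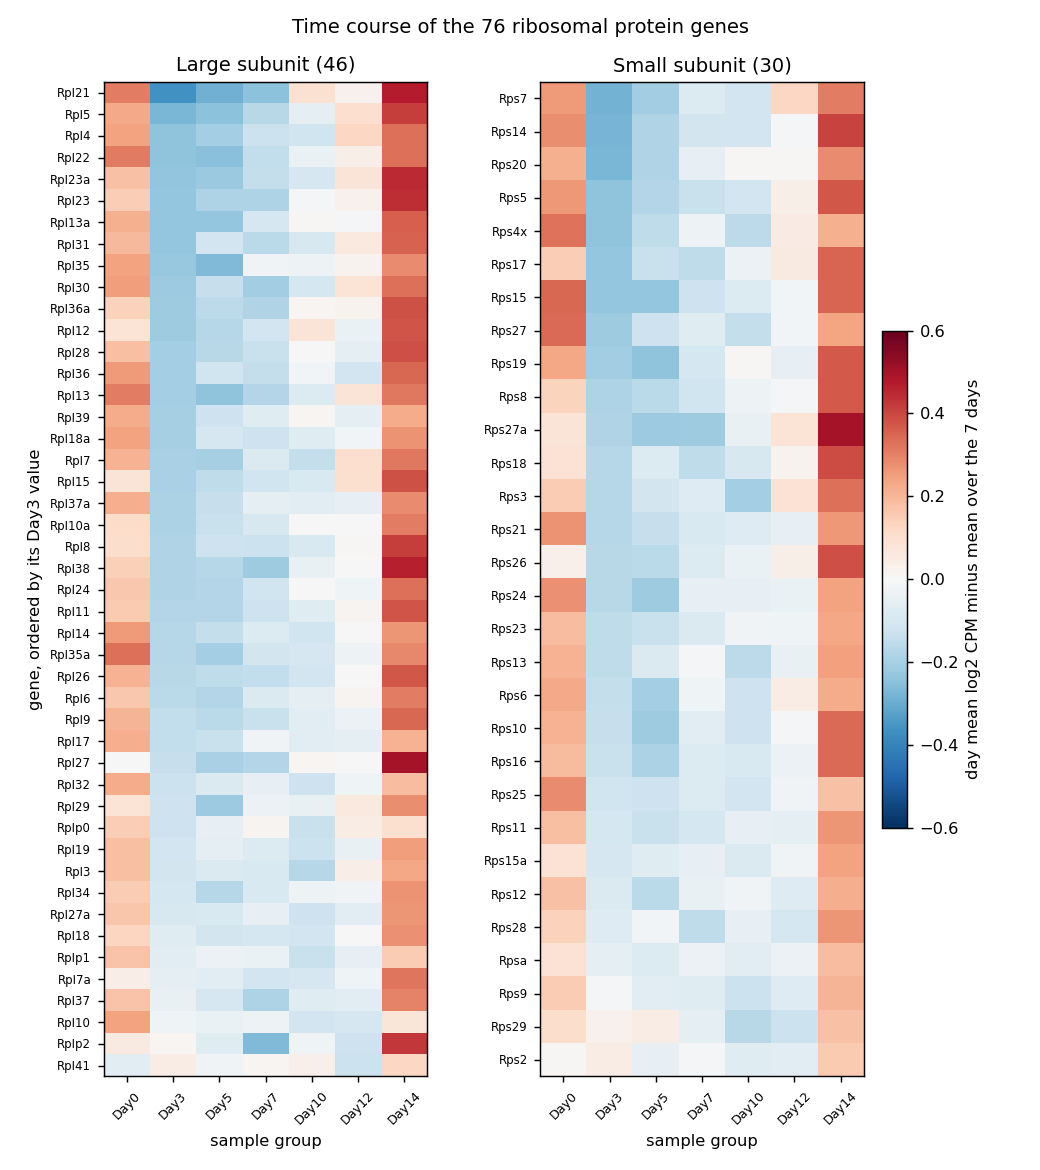
Mean log2 CPM of each gene on each day minus its mean over the 7 days (colour, red higher and blue lower), for 46 large subunit genes (left) and 30 small subunit genes (right), ordered from top to bottom by the Day3 value. Most rows are red on Day0 and Day14 and blue on Day3 and Day5; 37 members had their lowest day mean on Day3 and 64 their highest on Day14.

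The day of the lowest mean was Day3 for 37 members, Day5 for 21, Day10 for 12, Day7 for 5 and Day12 for 1. The highest mean fell on Day14 for 64 members and on Day0 for 12. Across the 7 day means, the median Pearson correlation over the 2850 pairs of members was 0.91, and 2844 pairs were above 0. These correlations are a description, since all genes share the same libraries and scaling. Against the mean of the other 75 members, the lowest correlations were those of Rpl41 (0.22), Rps29 (0.61), Rps2 (0.66) and Rpl10 (0.67). Across the 76 genes, the log2 fold change on Day3 had a Spearman's rho of -0.062 with gene length and -0.0099 with mean CPM. This is a description across genes, which are not independent replicates.

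Levels of different genes were compared per length, as FPKM (fragments per kilobase of gene length, scaled to the size of the library). Rpl41 had the highest mean level over the 28 libraries at 3504 FPKM, followed by Rplp1 (2025) and Rps27 (1732). The lowest were Rps15a (86.1), Rpl21 (117) and Rps20 (159). These values rest on the gene lengths the authors used, which were 449 bases for Rpl41 but 5136 for Rps15a and 3446 for Rps20, so that an unused long transcript lowers the level given. Ribosomal protein genes have many processed pseudogenes, and reads shared with these or with a near-identical copy could have been split in the authors' counting. The rows named as pseudogenes of the family held at most 0.00357% of the counts of a library. Some rows of like symbol, outside the rule and not named as pseudogenes, held more than a few counts. Over the libraries Rpl37rt had 1355 to 2651 counts, Rpl6l 1720 to 3436, Rps27rt 648 to 1377 and Rpl32l 25 to 69.

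Fau, Rack1 and Rps3a1, ribosomal proteins with other symbols, were tested in the same fit. On Day3 Rps3a1 (-0.43, SE 0.060), Fau (-0.29, SE 0.081) and Rack1 (-0.24, SE 0.064) fell. The same genes were lower on Day10, at -0.42, -0.36 and -0.27. From Day12 to Day14, Fau (0.32, SE 0.081) and Rack1 (0.25, SE 0.064) rose, and Rps3a1 was at 0.074 (SE 0.060).

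This comparison of paralogs was chosen after the data were seen. Some members have a paralog that can take its place in the ribosome or is used in other tissues. Counts of the paralog as a percentage of those of the member do not depend on the scaling between libraries. Rpl22l1 stood at 12.8% ± 0.97 (SD, n = 4) of Rpl22 on Day0, with libraries from 11.4% to 13.5%, and at 17.4% ± 0.85 (SD, n = 4) on Day3, with libraries from 16.3% to 18.2%. It was between 17.6% and 18.6% on the later days and overlapped Day0 on none. Rps27l stood at 14.0% ± 0.62 (SD, n = 4) of Rps27 on Day0 and 19.6% ± 0.68 (SD, n = 4) on Day3, and no day overlapped Day0. For both pairs, each of the 6 days had an exact two-sided permutation p of 0.0286, the smallest that 4 against 4 libraries allow, and 0.0332 after Benjamini-Hochberg adjustment over the 36 tests of 6 pairs and 6 days. On their own, neither Rpl22l1 (-0.11, SE 0.085) nor Rps27l (-0.064, SE 0.058) was called on Day3, and on Day14 both rose (0.56, SE 0.084, and 0.20, SE 0.058).

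Rpl39l, best known from testis, stood at 4.19% ± 0.54 (SD, n = 4) of Rpl39 on Day0, 7.08% ± 0.52 (SD, n = 4) on Day3 and 3.53% ± 0.42 (SD, n = 4) on Day14. The Day3 value differed from Day0 (exact permutation p = 0.0286, adjusted 0.0332), whereas Day14 did not pass (exact permutation p = 0.114, adjusted 0.121). Rpl36al stood at 36.7% ± 1.1 (SD, n = 4) of Rpl36a on Day0, 50.1% ± 1.4 (SD, n = 4) on Day3 and 39.7% ± 2.6 (SD, n = 4) on Day14 (exact permutation p = 0.0286 on Day3 and 0.114 on Day14). Rpl7l1, which is thought to act in ribosome assembly, stood at 7.38% of Rpl7 on Day0 (SD 0.44, n = 4), 12.5% on Day3 (SD 0.55, n = 4) and 8.94% on Day14 (SD 0.33, n = 4). A ratio also rises when the member falls, as most members did on Day3. On their own, the mean levels on Day0 and Day3 were 110.5 and 118.1 CPM for Rpl36al, 15.5 and 19.6 for Rpl39l and 80.4 and 103 for Rpl7l1.

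Rpl3l, the form of Rpl3 in striated muscle, had lower ratios after Day0. It stood at 7.98% ± 1.7 (SD, n = 4) of Rpl3 on Day0, with libraries from 6.46% to 10.3%, and at 1.47% ± 0.17 (SD, n = 4) on Day3 and 1.37% ± 0.096 (SD, n = 4) on Day14. The log2 fold change of Rpl3l itself was -2.75 on Day3 (SE 0.15, adjusted p = 2.82e-15, edgeR, Benjamini-Hochberg). The 6 skeletal muscle markers fell with it, all 6 on Day3 and on Day14, and their summed level was 17060 to 29720 CPM on Day0, 3881 to 4993 on Day3 and 4382 to 5498 on Day14. Their part in the result was not tested.

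**Figure D4:**
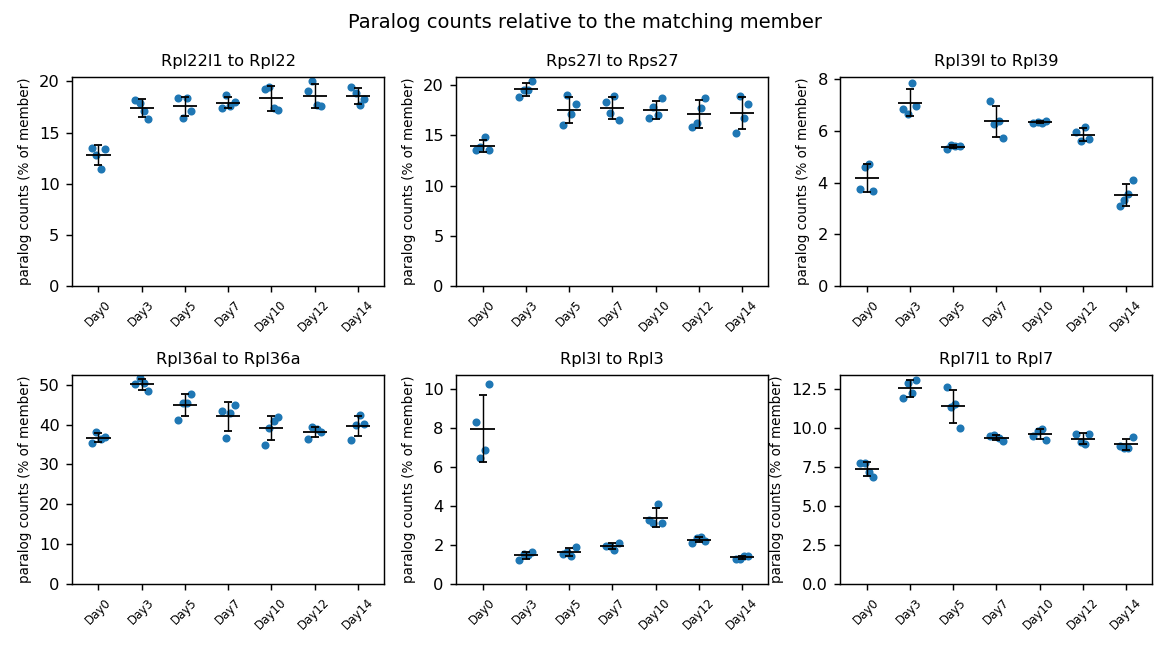
Counts of 6 paralogs as a percentage of the counts of the matching member (vertical axes, each from 0) by sample group (horizontal axes), one point per library, with the mean (line) and SD (bar) of 4 libraries. Rpl22l1 rises from 12.8% of Rpl22 on Day0 to 17.4% on Day3 and stays above Day0, Rpl39l is at 3.53% on Day14, and Rpl3l drops from 7.98% to 1.47%.

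The other parts of the translation machinery are given beside the members, each tested against the same Day0 libraries. Of all genes, 31.8% were higher and 34.8% lower on Day3, 28.2% and 34.5% on Day14, and 19.9% and 25.3% from Day12 to Day14. Of 60 genes of ribosome biogenesis and the nucleolus, 42 were higher and 2 lower on Day3, with a median of 0.26. On Day14, 56 were higher and 1 lower, with a median of 0.60. Nop58 (1.45, SE 0.10) and Nop56 (1.19, SE 0.11), core proteins of the box C/D particles that methylate ribosomal RNA, had the largest values. Sbds (-0.33, SE 0.047), which helps release the factor that keeps the subunits apart, was the 1 lower, and Bms1 was at 0.13 (SE 0.062). Npm1, the main nucleolar chaperone of ribosomal proteins, rose from Day3 (0.28, SE 0.074) to Day14 (0.86, SE 0.074) in each comparison with Day0. Of 78 mitochondrial ribosomal protein genes, 41 were higher and 1 lower on Day3 (median 0.20) and 63 were higher and 0 lower on Day14 (median 0.33), with Mrps22 (0.76, SE 0.091) and Mrps2 (0.72, SE 0.077) the largest and Mrpl42 (-0.097, SE 0.057) and Mrpl48 (-0.085, SE 0.075) the smallest. From Day12 to Day14 all 78 were higher, with a median of 0.40. Of 20 cytosolic aminoacyl-tRNA synthetases, which load tRNAs, 13 were higher and 0 lower on Day3 and 15 higher and 0 lower on Day14, where Cars (0.96, SE 0.080) and Rars (0.94, SE 0.068) had the largest values and Wars (-0.10, SE 0.079) and Qars (-0.0038, SE 0.077) the smallest. For RNA polymerase I, which transcribes the ribosomal RNA precursor, 3 of 11 genes were higher and 1 lower on Day3 and 10 higher and 0 lower on Day14, from Rrn3 (0.16, SE 0.068) and Polr1d (0.25, SE 0.11) to Taf1d (0.70, SE 0.12) and Polr1e (0.89, SE 0.12).

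Of 19 translation factors and partners whose messages carry a TOP tract, 12 were lower and 3 higher on Day3 (median -0.22, with 34.8% of all genes lower and 31.8% higher), and 12 lower and 2 higher on Day10 (median -0.24, with 26.9% of all genes lower and 23.5% higher). On Day10 Eif4b (-0.44, SE 0.055) and Eif3h (-0.43, SE 0.052), both initiation factors, had the lowest values, and Hnrnpa1 (0.23, SE 0.055) and Vim (0.19, SE 0.11) the highest. Eef1a1, the elongation factor that delivers tRNAs, fell on Day3 (-0.17, SE 0.055) and Day10 (-0.29, SE 0.055). From Day12 to Day14, 13 of the 19 were higher and 1 lower (median 0.21). On Day12 the median of this class was -0.13 and that of the mitochondrial ribosomal proteins -0.088, and both were above 0 (0.018 and 0.056) without composition normalisation.

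**Figure D5:**
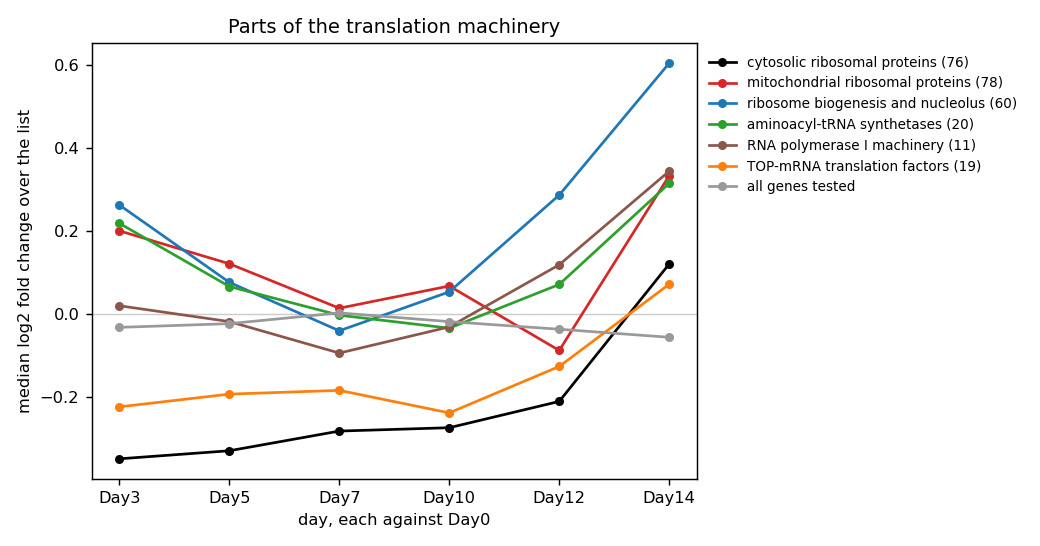
Median log2 fold change against Day0 (vertical axis) by day (horizontal axis) of the 76 cytosolic ribosomal protein genes, 5 other gene lists and all 18107 genes tested; every comparison shares the Day0 libraries. On Day3 the members' median was -0.35 and that of the biogenesis genes 0.26; on Day14 they were 0.12 and 0.60.

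The makeup of the samples changed on the same days. On Day3, 5 of 5 neutrophil markers were higher, at a summed 4312 to 5452 CPM against 15.9 to 41.7 on Day0, and 5 of 5 erythroid markers, at 1255 to 1566 CPM against 157 to 237. All 8 hair follicle markers were lower on Day3, at 8.10 to 15.01 CPM against 243 to 2142, and all 8 were higher on Day14, at 3748 to 5029 CPM. Fibroblast markers summed to 14690 to 57220 CPM on Day0, 21830 to 23940 on Day3, 40350 to 46940 on Day12 and 16380 to 19570 on Day14, where all 7 were lower than on Day0. Of 10 proliferation genes, 10 were higher on Day3 and 10 on Day14, at 219 to 405 CPM on Day0, 552 to 582 on Day3 and 972 to 1135 on Day14. Macrophage markers, of which 6 of 6 were higher on Day3 and 6 of 6 lower on Day14, summed to 1746 to 2675 CPM on Day0, 4736 to 4910 on Day3 and 862 to 924 on Day14. Of 5 brown adipocyte markers, 4 were higher and 1 lower on Day3 and 5 higher on Day14, at 223 to 267 CPM on Day0, 1153 to 1500 on Day3 and 833 to 1069 on Day14. The 6 skeletal muscle markers, given above with Rpl3l, were lower on both days. Mitochondrially encoded genes took 4.52% of counts on Day0, 6.41% on Day3, 3.70% on Day12 and 7.33% on Day14 (SD 0.50, 0.53, 0.18 and 0.15, n = 4 each). No marker of these lists was at 0 in all libraries. The part of these shifts in the values of the ribosomal protein genes was not tested.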

How the data were processed

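Total RNA of wound-site skin was sequenced in 28 libraries. The authors deposited raw counts per gene in one table and FPKM values in another. The deposited FPKM equalled the count over length and total within a relative difference of 2.62e-06. The submitters' processing notes name fastp, mm10 and R 3.2.0, and the study's methods name DESeq2. The aligner, counter, annotation and strand setting were not given in the sources used here. Without a strand setting, overlapping and antisense genes cannot be told apart.

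Groups came from the labels. Counts were tested in R 4.3.3 with edgeR 4.0.16 (filterByExpr, TMM, quasi-likelihood test, one fit over all 7 days) and Benjamini-Hochberg adjustment over all 18107 genes tested at 0.05. CPM were scaled by TMM, with a prior count of 2 on the log2 scale. DESeq2 1.42.0, limma 3.58.1 on log2(FPKM + 1) and log2(FPKM + 0.1), other scalings and filters, a replicate block and leaving out each library were alternatives. Paralog ratios were tested by exact two-sided permutation on log2 ratios with 0.5 added to the counts. Scripts were tested on simulated data. The members and lists were chosen with earlier results of these data known.

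Genes named are the members with listed roles, the 3 highest and 3 lowest members by fold change on each day, by range of day means and by FPKM, the 2 highest and 2 lowest of each pathway list on the day its median was farthest from 0, all ribosomal parts and paralogs with other symbols, and Myc, Larp1, Eef1a1 and Npm1. A gene that this rule names is not reported here. Other names are members that completed a count. Total counts per library were 36706513 to 40655764, and counting error was small beside the spread between libraries.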

Additional observations from a re-analysis of the deposited data

Results flagged for a closer look

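In 189 groups of 4 libraries, the highest or lowest library was compared with the other 3 by Dixon's criterion. It stood apart in 16 groups, and chance gives about 1 in 20, or 9.45. On Day5, replicate 4 held the highest values. Its member share was 5.03%, with the others at 4.22% to 4.35%. Its log2 CPM were 10.0 for Rplp1 (others 9.78 to 9.79), 10.07 for Rpl19 (others 9.78 to 9.80), 9.54 for Rpl26 (others 9.39 to 9.41) and 10.22 for Rps4x (others 9.95 to 9.96). On Day14, replicate 3 was highest for Rplp0 (11.13, others 10.86 to 10.90), Rpl10 (9.89, others 9.64 to 9.66) and Rpl35 (9.83, others 9.54 to 9.58).

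On Day10, replicate 4 was highest for Rplp0 (10.81, others 10.66 to 10.68), Rpl3 (9.82, others 9.71 to 9.73) and Rps27a (8.99, others 8.86 to 8.87), and replicate 3 was lowest for Rpl35 (9.21, others 9.35 to 9.36). On Day7, replicate 1 was lowest for Rpl26 (9.28, others 9.49 to 9.52) and replicate 3 highest for Rpl10a (9.27, others 9.13 to 9.15). Rps18 was lowest in Day12 replicate 3 (9.38, others 9.46 to 9.48), and Rpl5 was highest in Day0 replicate 1 (10.1, others 9.95 to 9.97).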

How the results depend on the processing

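The direction of the members' median against Day0 was kept under every alternative run. Without composition normalisation the median was -0.219 on Day10, -0.0668 on Day12 and 0.247 on Day14. With limma on FPKM, which has no composition normalisation either, it was -0.218, -0.0667 and 0.247 at either pseudocount. On Day12, 1 member was higher and 8 lower under these 3 settings. On Day14, 59 were higher without composition normalisation (36.1% of all genes), and 59 and 58 with limma at pseudocounts 1 and 0.1. With RLE size factors 40 were higher (30.3% of all genes), and with DESeq2 41. On that day 0 members were lower under each of these settings, without the low-count filter and with the 8 libraries alone. From Day5 to Day7, 9 were higher without composition normalisation, 11 and 10 with limma, 0 without the filter and 2 with at least 10 counts in every library. From Day7 to Day10, 13 were higher without composition normalisation and with limma, and 12 higher and 1 lower with the 8 libraries alone. From Day10 to Day12 these were 34, and 29 higher and 1 lower. The cause was not tested.

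Without mitochondrially encoded genes the member share was 6.01% on Day0, 4.68% on Day3, 5.05% on Day7, 5.30% on Day10, 5.79% on Day12 and 7.29% on Day14. Without collagen and keratin genes as well it was 6.33%, 4.84%, 5.03% (Day5), 5.47%, 5.75%, 6.25% and 7.66%. As a share of summed FPKM it was 15.5%, 11.4%, 12.1% (Day5), 13.2%, 13.9%, 15.6% and 17.2%, with Day12 above and not below Day0. The planned selection of mitochondrial genes by symbol prefix matched no gene and was not run, and a list of the table's own symbols was used after seeing the data.

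With 1 library left out, the members lower than Day0 numbered 60 to 69 on Day3 (0 to 1 higher), 62 to 71 on Day5, 60 to 70 on Day7, 48 to 65 on Day10 and 34 to 48 on Day12. The medians were -0.373 to -0.268, -0.394 to -0.277, -0.312 to -0.249, -0.286 to -0.235 and -0.237 to -0.161. On Day14, 17 to 51 were higher and 0 to 2 lower, with medians of 0.0802 to 0.222. From Day5 to Day7, 0 to 16 were higher (16 without Day5 replicate 4, 3 without Day7 replicate 2, and 0 without Day5 replicate 1, 2 or 3 or Day7 replicate 1 or 4) and 0 to 1 lower. From Day7 to Day10, 1 to 7 were higher (1 without Day7 replicate 1, 2 without Day10 replicate 1 or 4, 3 without Day7 replicate 2) and 0 to 1 lower. From Day10 to Day12, 6 to 15 were higher (6 without Day10 replicate 3, 7 without Day12 replicate 1), and from Day12 to Day14, 63 to 75. Members differing among the days numbered 73 to 76. The shares were 5.63% to 5.81% on Day0, 4.28% to 4.44% on Day3, 4.29% to 4.56% on Day5, 4.70% to 4.85% on Day7, 4.90% to 5.05% on Day10, 5.52% to 5.64% on Day12 and 6.65% to 6.84% on Day14.

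Libraries with the same replicate number did not deviate together. Over 84 pairs the median correlation was -0.000911 (range -0.0762 to 0.178), 1 pair was above 0.1, and 8 of 28 libraries correlated best with their own number. With the replicate block, 69 members were lower on Day3, 24 higher and 1 lower on Day14, and 74 higher from Day12 to Day14.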

Other observations

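Of 22 regulators of TOP messages and of S6 phosphorylation, 10 were higher and 5 lower on Day3 (31.8% and 34.8% of all genes), and 7 higher and 7 lower on Day14, a share near that of all genes (28.2% and 34.5%). On Day3 the largest values were those of Mxd1, a Max partner that opposes Myc (2.82, SE 0.069), and Sesn2, an inhibitor of mTORC1 (1.17, SE 0.086), and the smallest those of Mycn (-3.47, SE 0.29) and Maf1, a repressor of RNA polymerase III (-0.36, SE 0.061). Mycn had 3 to 11 counts in the Day3 libraries. It was at 1.95 to 4.33 CPM on Day0, 0.0816 to 0.304 on Day3 and 37.6 to 47.3 on Day14, and rose on Day14 by 3.94 (SE 0.19) on the log2 scale. Maf1 was lower on each of the 6 days, down to -0.53 (SE 0.061) on Day14. Myc was at 0.20 on Day3 (SE 0.10, adjusted p = 0.0808), fell on Day7 (-0.38, SE 0.10) and rose on Day14 (0.24, SE 0.10). Larp1 was at 0.11 on Day3 (adjusted p = 0.117) and 0.13 on Day14 (adjusted p = 0.0659), all by edgeR with Benjamini-Hochberg adjustment.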
